A study of Homo sapiens with 6 samples.

Results

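Hyaluronan, a long unbranched sugar polymer of the matrix around cells, is made at the plasma membrane, cut into fragments, and bound by receptors, and the 10 human genes for these steps were followed here in 2 colorectal cancer cell lines. They were taken by their symbols from the 60666 genes in the count tables: the synthases HAS1, HAS2 and HAS3, the receptors CD44 and HMMR, the hyaluronidases HYAL1, HYAL2 and HYAL3, and CEMIP and CEMIP2, which are needed for another route of hyaluronan breakdown. All 10 were found, and 8 had enough reads to enter the fit over 16959 genes, HAS1 and HAS2 being too low. They were chosen on their RNA levels in these same libraries, that is, with the difference between DNMT3B KO and HCT116 already known, so their own values are given as a description, with no p-value.

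RNA-seq had been performed on HCT116 cells, a colorectal cancer line of WT genotype at DNMT3B, and on DNMT3B KO cells, an HCT116 derivative with DNMT3B inactivated. DNMT3B is a DNA methyltransferase that puts methyl groups on cytosines not yet methylated. There were 3 libraries of each cell line, with no treatment in either. DNMT3B KO is a single derived line, so a difference between the lines cannot be told apart from a difference between clones. The labels do not say whether a line's libraries are from different cultures, and p-values therefore measure only the spread between these libraries, which may be technical.

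Hyaluronan synthases sit in the plasma membrane, join UDP-glucuronic acid and UDP-N-acetylglucosamine in turn, and push the growing chain out of the cell. In the classical route of breakdown HYAL2, anchored at the cell surface, cuts the polymer into fragments that HYAL1 and exoglycosidases finish in the lysosome. CD44 holds hyaluronan at the cell surface and is tied to the actin cytoskeleton through ezrin, radixin and moesin, and it is a familiar marker of intestinal crypt and colorectal cancer cells.

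The 6 libraries held between 55436267 and 68274783 counts each. Within a line, the correlation of log2 counts per 1000000 counts of a library (CPM) over genes was 0.975 to 0.987 for HCT116 and 0.990 to 0.991 for DNMT3B KO. DNMT3B, the targeted gene, was at 36.0 ± 5.15 CPM (SD, n = 3) in HCT116 and 2.75 ± 0.182 CPM (SD, n = 3) in DNMT3B KO, where its log2 fold change was -3.71 (SE 0.15, edgeR adjusted p = 2.51e-06). Of 8 colorectal epithelial markers, 7 reached 1 CPM, CDX1 was at or near 0, and their summed level was 4388 to 5256 CPM in HCT116 and 2123 to 2310 CPM in DNMT3B KO. The sum was mostly KRT8, KRT18 and KRT19, whose log2 fold changes were -1.12, -1.15 and -1.35 (edgeR adjusted p = 0.000912, 0.000983 and 0.000308), and CDH1 was lower too (-1.70, adjusted p = 0.000234). EPCAM (-0.09, adjusted p = 0.556) and CDX2 (-0.14, adjusted p = 0.325) did not pass, and VIL1 was higher, at 0.0841 ± 0.0190 CPM in HCT116 against 1.05 ± 0.694 CPM in DNMT3B KO (3.62, adjusted p = 0.00264), passing 1 CPM in DNMT3B KO replicate 3 alone. Markers of fibroblasts (2 of 8 reached 1 CPM, LUM at 0, summed level 9.98 to 19.9 and 15.4 to 18.0 CPM), of immune and blood cells (3 of 8, 6.27 to 16.0 and 17.7 to 22.7 CPM) and of endothelium (1 of 6, 0.674 to 1.62 and 1.49 to 2.01 CPM) were low in both lines, the immune sum being led by CD68, which other cell types also express. The part of these markers in the differences described here was not tested. In such bulk RNA, fewer cells expressing a gene and less RNA per cell cannot be told apart.

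Promoter sequences are shown for the genes on which the description turns: HAS3, CD44 and CEMIP2, which were lower in DNMT3B KO, and HYAL3, which was higher. DNMT3B acts on CG dinucleotides, and these are in capitals. Each sequence runs 5′ to 3′ on the strand of the gene, from 250 bases before to 50 bases after a RefSeq start site in GRCh38.p14. The starts used for HAS3, CD44 and CEMIP2 lie inside the longer gene bounds of GENCODE 44, so each gene has annotated transcripts that begin further upstream. The same holds for the starts of HYAL1 and HMMR used below and, by short distances, for those of HYAL2 and CEMIP.
HAS3, chr16:69107290-69107589, plus strand: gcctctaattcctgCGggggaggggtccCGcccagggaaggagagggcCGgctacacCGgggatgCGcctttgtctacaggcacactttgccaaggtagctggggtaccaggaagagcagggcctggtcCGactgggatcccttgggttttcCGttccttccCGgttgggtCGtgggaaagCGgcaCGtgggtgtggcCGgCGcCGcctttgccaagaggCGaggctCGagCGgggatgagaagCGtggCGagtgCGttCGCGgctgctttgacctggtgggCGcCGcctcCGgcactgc
CD44, chr11:35138921-35139220, plus strand: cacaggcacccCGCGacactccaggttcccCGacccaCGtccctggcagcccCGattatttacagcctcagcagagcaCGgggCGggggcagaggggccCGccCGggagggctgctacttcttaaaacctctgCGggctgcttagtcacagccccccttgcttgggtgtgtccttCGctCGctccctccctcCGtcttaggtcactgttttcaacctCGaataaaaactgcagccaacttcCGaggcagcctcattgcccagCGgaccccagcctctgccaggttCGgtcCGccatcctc
CEMIP2, chr9:71768464-71768763, minus strand: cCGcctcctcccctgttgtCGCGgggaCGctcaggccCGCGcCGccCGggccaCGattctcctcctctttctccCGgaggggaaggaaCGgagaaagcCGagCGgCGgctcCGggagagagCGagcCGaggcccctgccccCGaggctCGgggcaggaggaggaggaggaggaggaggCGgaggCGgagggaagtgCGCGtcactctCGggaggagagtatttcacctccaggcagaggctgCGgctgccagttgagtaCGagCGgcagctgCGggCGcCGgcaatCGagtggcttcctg
HYAL3, outer start, chr3:50299356-50299655, minus strand: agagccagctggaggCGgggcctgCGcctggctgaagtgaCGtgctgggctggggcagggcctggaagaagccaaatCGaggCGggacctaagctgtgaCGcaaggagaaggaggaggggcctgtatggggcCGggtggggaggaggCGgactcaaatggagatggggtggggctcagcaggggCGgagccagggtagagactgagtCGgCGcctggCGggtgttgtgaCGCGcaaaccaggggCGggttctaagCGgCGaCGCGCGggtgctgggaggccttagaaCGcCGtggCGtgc

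These windows held 25 CG dinucleotides for HAS3, 18 for CD44, 31 for CEMIP2 and 23 for the outer start of HYAL3. Over 35116 RefSeq promoters of the same length the median was 14. At least as many as in HAS3 were found in 32% of them, as in CD44 in 44.5%, as in CEMIP2 in 20.7% and as in HYAL3 in 35.8%. The tested hyaluronan genes that did not separate the cell lines were at both ends of the scale, with 32 CG in CEMIP (18.9% of promoters have at least as many) and 4 in HYAL1 (75.5%). HYAL2 had 11, HMMR 12 and the inner start of HYAL3 15. HAS1, too low to be tested and also not separating the lines, had 15. Of the 9 genes with a window, only HYAL3 had all DNMT3B KO libraries above all HCT116 libraries. Whether CG content goes with the direction of the RNA difference cannot be told from these genes and was not tested. No methylation was measured in the libraries described here.

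HAS3, on chromosome 16 (hg38, 69105653 to 69118719, plus strand), carried nearly all synthase RNA of HCT116 cells and had the greatest difference among the hyaluronan genes. Its level was 152.6, 128.6 and 155.0 CPM in HCT116 replicates 1, 2 and 3 and 3.01, 3.42 and 2.71 CPM in DNMT3B KO replicates 1, 2 and 3. The lowest HCT116 library was thus far above the highest DNMT3B KO library, and the libraries within each line lay close together. The means were 145 ± 14.6 CPM and 3.05 ± 0.356 CPM (SD, n = 3 each), a 47.7-fold lower level in DNMT3B KO with a log2 fold change of -5.58 (SE 0.14). Leaving out each library in turn gave log2 fold changes between -5.67 and -5.50. Ordered by log2 fold change, HAS3 was number 173 from the most negative among the 16959 tested genes. The counts behind these values were 26144 in HCT116 and 599 in DNMT3B KO, so the remaining DNMT3B KO signal was small but well above the counting limit.

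The other synthases were barely detected. HAS2 had 8, 6 and 3 counts in the HCT116 libraries and 2, 2 and 3 counts in the DNMT3B KO libraries, all below 1 CPM. In CPM every DNMT3B KO library was below every HCT116 library. The closest were DNMT3B KO replicate 3 (0.0457) and HCT116 replicate 3 (0.0595), each with 3 counts. The ratio of the group sums, 17 and 7 counts, was 2.66 after library size with an exact 95% interval of 1.05 to 7.57 that covers counting error only. HAS1 had no count in HCT116 and 1 count in DNMT3B KO. With 0 counts a library still allows 3, a level of 0.0506 CPM for HCT116 libraries and of 0.0459 CPM for DNMT3B KO libraries on average. Neither gene was detectably higher in DNMT3B KO at this depth. The summed synthase level per length was 2.35 ± 0.339 transcripts per 1000000 (TPM) in DNMT3B KO against 101 ± 8.88 TPM in HCT116 (SD, n = 3 each).

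**Figure D1:**
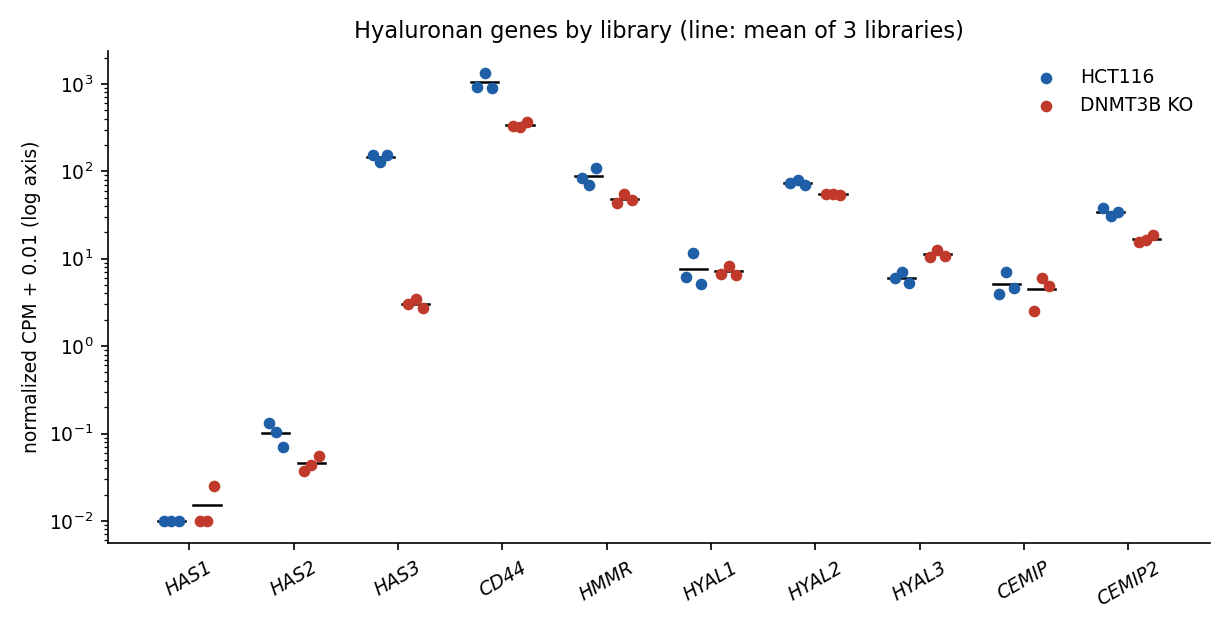
Level of each hyaluronan gene in every library, as normalised CPM plus 0.01 on a log axis, with blue points for HCT116, red points for DNMT3B KO and lines at the means of 3 libraries. HAS3 has a mean of 145 CPM for HCT116 against 3.05 CPM for DNMT3B KO, CD44, HMMR, HYAL2 and CEMIP2 are lower in every DNMT3B KO library, HYAL3 is higher, and HAS1, HYAL1 and CEMIP overlap. HAS2 is lower in every DNMT3B KO library too, but at 8 counts or fewer in each library.

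CD44, on chromosome 11 (35138882 to 35232402, plus strand), was the most abundant of the 10 genes in both lines. It stood at 927, 1327 and 906 CPM in HCT116 and at 327, 323 and 365 CPM in DNMT3B KO. HCT116 replicate 2 was higher than the other two, and all DNMT3B KO libraries were below all HCT116 libraries. The means were 1053 ± 237 and 338 ± 23.4 CPM (SD, n = 3 each), a log2 fold change of -1.64 (SE 0.16) or a 3.11-fold lower level. Without HCT116 replicate 2 the log2 fold change was -1.45, which was the smallest value when libraries were left out in turn. The counts do not separate the CD44 isoforms that arise by alternative splicing.

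HMMR, on chromosome 5 (163460203 to 163491941, plus strand), encodes a hyaluronan-binding protein that also works at the mitotic spindle, and its RNA normally peaks in dividing cells. It was at 83.0, 69.4 and 110 CPM in HCT116 and at 43.8, 54.4 and 47.0 CPM in DNMT3B KO. The groups did not overlap, but HCT116 replicate 2 came within a short distance of the highest DNMT3B KO library. The means were 87.6 ± 20.8 and 48.4 ± 5.44 CPM (SD, n = 3 each), a log2 fold change of -0.86 (SE 0.17), ranging from -1.01 to -0.65 with a library left out.

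The HMMR promoter is shown because HMMR was set against other mitotic genes, many of which share the motifs in capitals. These are CCAAT, which reads ATTGG on the other strand, and TTTGAA, which reads TTCAAA there, the latter being the core of the cell cycle genes homology region, and they were chosen after the sequence had been seen.
HMMR, chr5:163460382-163460681, plus strand: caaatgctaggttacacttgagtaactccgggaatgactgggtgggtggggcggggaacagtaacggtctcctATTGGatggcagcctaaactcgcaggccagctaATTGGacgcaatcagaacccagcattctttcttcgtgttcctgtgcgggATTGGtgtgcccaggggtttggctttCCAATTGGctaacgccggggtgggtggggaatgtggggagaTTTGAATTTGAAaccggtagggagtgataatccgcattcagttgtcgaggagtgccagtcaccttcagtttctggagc

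The HMMR window held 5 CCAAT and 2 TTTGAA matches, counted on both strands, with 1 CCAAT and 1 ATTGG sharing bases. CCAAT was present in 34.6% of the 35116 promoters, TTTGAA in 15.2% and both in 5.90%. No other hyaluronan gene with a window had a CCAAT match, and HAS1 had the only other TTTGAA match.

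Of 12 spindle and mitosis genes listed with HMMR, all were tested and 2 rose, 2 fell and 8 did not pass the edgeR test, with a median log2 fold change of 0.14 against 0.00 over all tested genes. Over all tested genes 12.9% rose and 15.1% fell. BUB1, a spindle checkpoint kinase, fell from 164 ± 36.8 to 99.0 ± 4.31 CPM (log2 fold change -0.73, SE 0.16, adjusted p = 0.0114). NUMA1, which organises the spindle poles, fell from 188 ± 7.34 to 148 ± 14.3 CPM (log2 fold change -0.34, adjusted p = 0.0311). CENPF, a kinetochore protein, rose from 211 ± 47.4 to 320 ± 15.1 CPM (log2 fold change 0.60, adjusted p = 0.0277) and BRCA1, a DNA repair protein that binds HMMR, from 56.4 ± 17.5 to 93.3 ± 6.05 CPM (log2 fold change 0.73, adjusted p = 0.0389). HMMR thus went the way of BUB1 and NUMA1 and not of CENPF and BRCA1. Each of these 4 calls was lost when some single library was left out, with the direction kept. Without any 1 of the DNMT3B KO libraries neither CENPF (adjusted p = 0.0762, 0.0832 and 0.109 without replicates 1, 2 and 3) nor BRCA1 (0.0827, 0.121 and 0.124) passed. BUB1 did not pass without HCT116 replicate 1 (adjusted p = 0.0505) or DNMT3B KO replicates 1 (0.055) or 3 (0.052), and NUMA1 did not without HCT116 replicate 1 (0.104) or DNMT3B KO replicates 2 (0.129) or 3 (0.127).

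As a share of the summed CPM of these 12 genes, HMMR was 2.92, 3.57 and 3.68% in the HCT116 libraries and 1.63, 1.98 and 1.67% in the DNMT3B KO libraries. The sum itself was 2847, 1946 and 2995 CPM in HCT116 and 2687, 2754 and 2817 CPM in DNMT3B KO. HCT116 replicate 2 was low in the mitotic sum as it was in HMMR, and as a share of the sum HMMR was lower in every DNMT3B KO library than in any HCT116 library.

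**Figure D2:**
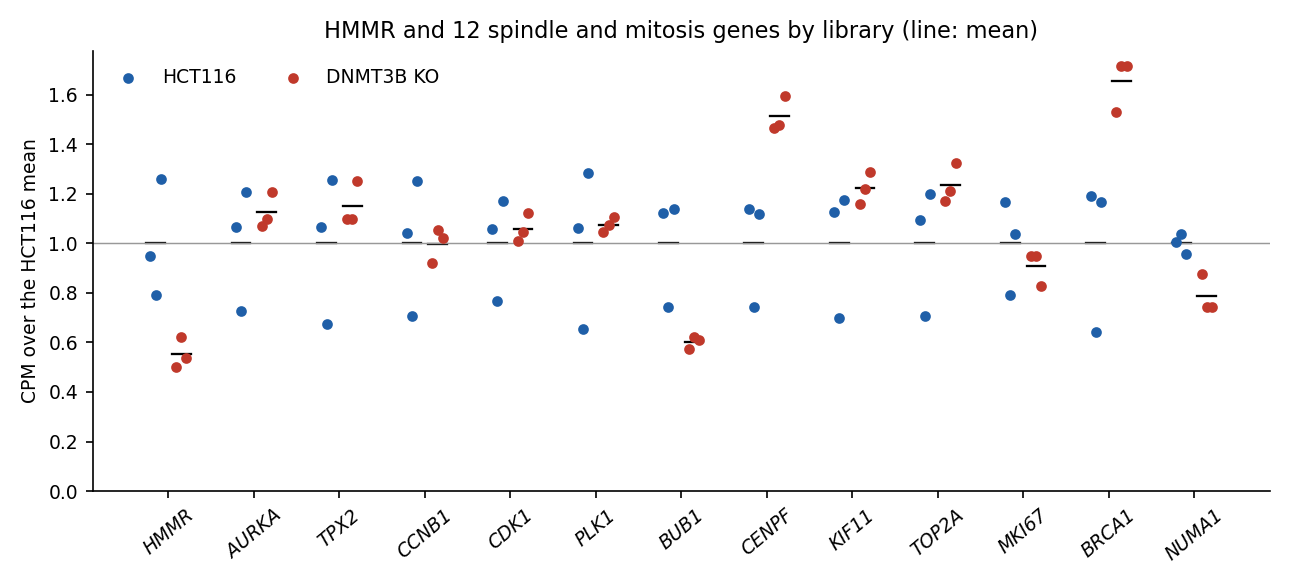
CPM of HMMR and of 12 spindle and mitosis genes in each library, divided by the mean of the HCT116 libraries (grey line at 1), with blue points for HCT116, red points for DNMT3B KO and black lines at the means. HMMR, BUB1 and NUMA1 lie lower in all DNMT3B KO libraries and CENPF and BRCA1 higher, while HCT116 replicate 2 is low for most of the genes.

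HYAL1, HYAL2 and HYAL3 lie side by side on the minus strand of chromosome 3 (HYAL3 at 50292831 to 50299405, HYAL1 at 50299890 to 50312381 and HYAL2 at 50317790 to 50322782), and each had its own pattern. HYAL2, the surface-anchored enzyme, was at 73.1, 80.1 and 69.8 CPM in HCT116 and 55.0, 55.1 and 53.5 CPM in DNMT3B KO. The difference was small next to that of HAS3 but exceeded the spread, with means of 74.3 ± 5.24 and 54.5 ± 0.921 CPM (SD, n = 3 each) and a log2 fold change of -0.45 (SE 0.08).

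HYAL3, whose protein has little known hyaluronidase activity of its own, went the other way. It was at 5.98, 6.97 and 5.26 CPM in HCT116 and 10.6, 12.7 and 10.8 CPM in DNMT3B KO, so that all DNMT3B KO libraries were above all HCT116 libraries. The means were 6.07 ± 0.861 and 11.4 ± 1.16 CPM (SD, n = 3 each), a log2 fold change of 0.90 (SE 0.16) or a 1.87-fold higher level. Some exon sequence of HYAL3 (14.0% of its bases) also belongs to IFRD2 or NAA80 on the same strand, and 11.5% of that of HYAL2 belongs to TUSC2, so reads there could be given to either gene. NAA80 fell (log2 fold change -0.56, SE 0.16, adjusted p = 0.035), and the ratio of HYAL3 to NAA80 in CPM was 0.718, 0.733 and 0.732 in HCT116 and 1.89, 2.40 and 1.78 in DNMT3B KO. The fall of NAA80 did not pass without HCT116 replicate 1 (adjusted p = 0.106) or DNMT3B KO replicates 1 (0.111), 2 (0.123) or 3 (0.0732). IFRD2 (log2 fold change 0.00, adjusted p = 0.992) and TUSC2 (-0.28, 0.142) did not pass, although TUSC2 did without HCT116 replicate 2 (-0.40, 0.0166).

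HYAL1, the lysosomal enzyme, was at 6.20, 11.6 and 5.12 CPM in HCT116 and 6.68, 8.30 and 6.43 CPM in DNMT3B KO. The DNMT3B KO values fell within the range of the HCT116 values, and HCT116 replicate 2 was 2.26 times the lowest HCT116 library. The log2 fold change was -0.10 (SE 0.30), and without HCT116 replicate 2 it was 0.32. No direction can be given for HYAL1.

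To rank or add the levels of different genes, TPM was used, computed from the counts and the exon length of each gene in GENCODE 44. TPM left out the library factors used for CPM (0.910 to 0.982 in HCT116, 1.02 to 1.07 in DNMT3B KO). DNMT3B KO levels therefore stood higher against HCT116 in TPM than in CPM. The HYAL1 mean was 8.99 and 9.13 TPM but 7.63 and 7.14 CPM in HCT116 and DNMT3B KO. The sums below were not computed with those factors. The summed TPM of the 3 hyaluronidases was 80.2, 93.8 and 68.6 in HCT116 and 81.2, 86.8 and 73.3 in DNMT3B KO, with overlapping means of 80.9 ± 12.6 and 80.4 ± 6.77 (SD, n = 3 each). Within that sum the share of HYAL3 was 14.1, 14.0 and 13.3% in HCT116 and 26.9, 29.9 and 28.0% in DNMT3B KO, and that of HYAL2 was 75.5 ± 3.73% and 60.5 ± 2.47%. The HYAL1 share stayed near 11% (10.8 ± 3.49% and 11.3 ± 1.02%). The synthase sum divided by the hyaluronidase sum was 1.36, 0.975 and 1.48 in HCT116 and 0.0293, 0.0308 and 0.0272 in DNMT3B KO. These are levels of RNA, and no enzyme activity or hyaluronan was measured.

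**Figure D3:**
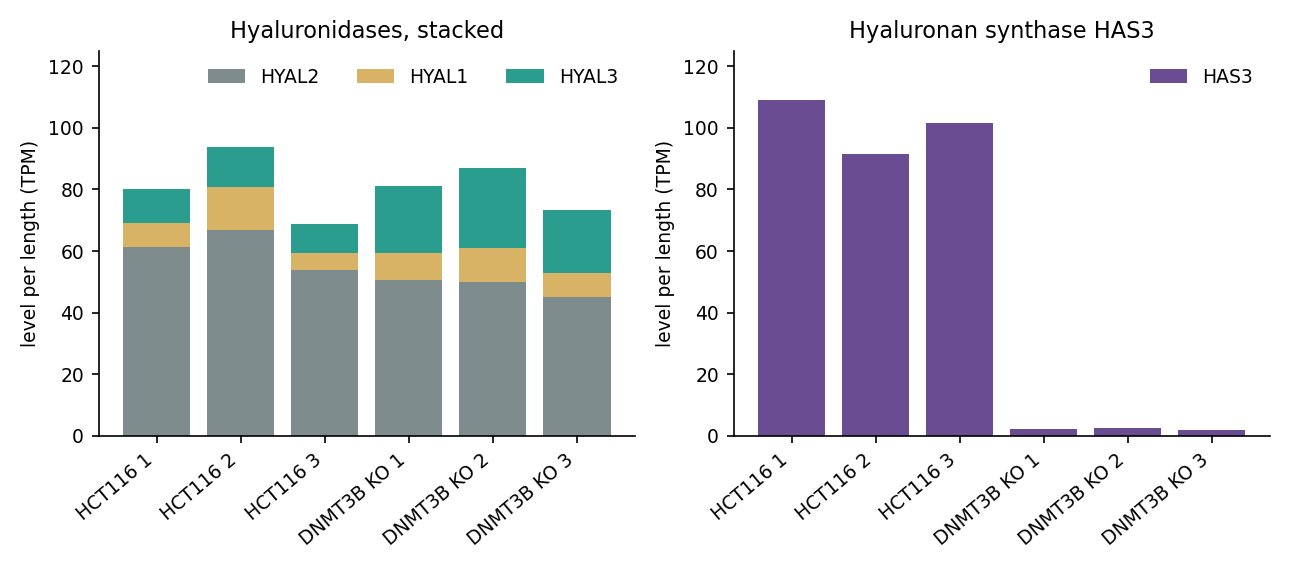
Level per length (TPM) in each library of the 3 hyaluronidases, stacked, on the left, and of HAS3 on the right, on the same linear axis from 0. On this scale, which leaves out the library factors used for CPM, the hyaluronidase stack has nearly the same height in both lines. Its HYAL3 layer is wider in DNMT3B KO, while HAS3 stands at 101 ± 8.88 TPM in HCT116 and 2.31 ± 0.351 TPM in DNMT3B KO.

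CEMIP2, on chromosome 9 (71683366 to 71816690, minus strand), encodes a membrane protein described as a cell surface hyaluronidase. It was at 38.3, 31.1 and 34.3 CPM in HCT116 and 15.7, 16.4 and 18.6 CPM in DNMT3B KO. The groups were well apart, with means of 34.6 ± 3.58 and 16.9 ± 1.49 CPM (SD, n = 3 each) and a log2 fold change of -1.03 (SE 0.12), a 2.05-fold lower level.

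CEMIP, on chromosome 15 (80779343 to 80951776, plus strand), encodes the related protein that mediates hyaluronan depolymerisation. It was at 3.97, 7.02 and 4.56 CPM in HCT116 and 2.51, 5.94 and 4.89 CPM in DNMT3B KO, with a log2 fold change of -0.22 (SE 0.34). The groups overlapped and the libraries of a line differed by up to 2.37 times, so that CEMIP2 separated the lines and CEMIP did not. Whether the 2 log2 fold changes differ was not tested, and the ratio of CEMIP2 to CEMIP per length overlapped between the lines (7.93, 3.66 and 6.20 in HCT116, 5.15, 2.27 and 3.13 in DNMT3B KO).

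Of the 8 hyaluronan genes in the edgeR fit, 5 (HAS3, CD44, HMMR, HYAL2 and CEMIP2) were past its threshold as lower and 1 (HYAL3) as higher in DNMT3B KO, which describes the values by which they were chosen and is no test of them. Over all 16959 tested genes, 15.1% were called lower, 12.9% higher and 28.1% either way. All DNMT3B KO libraries were below all HCT116 libraries for the same 5 genes and above for HYAL3, and over all tested genes this held for 22.6% and 23.3%. As the genes were picked with these results known, nothing is read from the comparison. The median log2 fold change of the 8 was -0.65.

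Ordered by TPM, the genes of HCT116 ran CD44 (382 ± 96.0), HAS3 (101 ± 8.88), HMMR (79.8 ± 15.3), HYAL2 (60.7 ± 6.56), CEMIP2 (13.5 ± 1.65), HYAL3 (11.2 ± 2.0), HYAL1 (8.99 ± 4.30) and CEMIP (2.46 ± 0.817), each as mean ± SD of 3 libraries. The libraries of HAS3 and HMMR, HMMR and HYAL2, CEMIP2 and HYAL3, and HYAL3 and HYAL1 overlapped, so these neighbours in the order are not separated by their ranges. Compared within libraries, HAS3 was above HMMR in each HCT116 library (109, 91.4 and 102 against 78.5, 65.2 and 95.6 TPM). The order within the other pairs changed between libraries. In DNMT3B KO the order was CD44 (133 ± 3.20), HYAL2 (48.5 ± 3.04), HMMR (48.4 ± 6.19), HYAL3 (22.7 ± 2.84), HYAL1 (9.13 ± 1.55), CEMIP2 (7.16 ± 0.294), HAS3 (2.31 ± 0.351) and CEMIP (2.29 ± 0.901). HAS3 thus moved from second place to a level that could not be told from that of CEMIP, and HYAL2 and HMMR could not be told apart either. HAS2 and HAS1 closed both orders at under 1 TPM.

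The libraries of DNMT3B KO agreed more closely than those of HCT116. Over 12821 genes with at least 1 CPM the median coefficient of variation was 12.8% in HCT116 and 6.80% in DNMT3B KO. In HCT116 the coefficients of HYAL1 (45.2%), CEMIP (31.1%), HMMR (23.8%), CD44 (22.5%) and HYAL3 (14.2%) were above that median, and those of HYAL2 (7.04%), HAS3 (10.0%) and CEMIP2 (10.4%) below it. In DNMT3B KO CEMIP varied most of the 8 (39.5%) and HYAL2 least (1.69%).

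Genes around the hyaluronan genes were described from 6 lists by function, of which 44 of 64 genes were tested. In total 5 rose, 12 fell and 27 did not pass, with a median log2 fold change of -0.02, beside 12.9% that rose and 15.1% that fell over all tested genes. The lists were drawn up with earlier results of these data known.

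UGP2 and UXS1 were the 2 of 8 genes of UDP-sugar supply that fell, and none rose. UGP2, which makes UDP-glucose, was at 58.5, 64.3 and 60.1 CPM in HCT116 and 29.3, 30.6 and 32.1 CPM in DNMT3B KO (log2 fold change -0.99, SE 0.08, adjusted p = 0.000117). UXS1, which turns UDP-glucuronic acid into UDP-xylose and so draws on the same precursor, fell from 61.6 ± 4.56 to 39.3 ± 0.545 CPM (log2 fold change -0.65, adjusted p = 0.0011). UGDH, which makes UDP-glucuronic acid, was level at 93.4 ± 7.43 and 92.9 ± 4.50 CPM (log2 fold change -0.01, SE 0.09, adjusted p = 0.959). The median log2 fold change of the list was -0.19. The count of 0 higher came from edgeR, 4 of the 8 had an unadjusted p under 0.05, and DESeq2 called 3 lower and 0 higher.

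HEXA and NAGLU fell among the 6 tested genes of fragment and lysosomal breakdown. HEXA, the alpha chain of beta-hexosaminidase, which removes end sugars of hyaluronan fragments, went from 37.9 ± 5.01 to 17.5 ± 0.442 CPM (log2 fold change -1.12, SE 0.12, adjusted p = 0.000319). NAGLU, a lysosomal glucosaminidase of heparan sulphate breakdown, went from 12.7 ± 0.952 to 8.97 ± 0.472 CPM (log2 fold change -0.50, adjusted p = 0.0208), a call not made without HCT116 replicate 1 (adjusted p = 0.0583) or DNMT3B KO replicates 1 (0.0577), 2 (0.0733) or 3 (0.0807). GUSB, the beta-glucuronidase that acts beside hexosaminidase, was at 30.8 ± 2.25 and 36.7 ± 3.11 CPM (log2 fold change 0.25, adjusted p = 0.103). None of the 6 rose in edgeR or DESeq2, 3 had an unadjusted p under 0.05, and 1 rose without HCT116 replicate 2. The list median was 0.11, above the all-gene median, although its calls were lower ones. HYAL4 and SPAM1 had no count in any library.

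VCAN led the 18 hyaluronan-binding and matrix proteins, of which 5 were tested, 2 rose and none fell. VCAN, or versican, a large proteoglycan that binds hyaluronan chains, was at 357, 282 and 318 CPM in HCT116 and 803, 770 and 866 CPM in DNMT3B KO (log2 fold change 1.35, SE 0.11, adjusted p = 0.000112). It was thus higher where the synthase and CD44 were lower, and its CPM divided by that of CD44 was 0.385, 0.213 and 0.351 in HCT116 and 2.45, 2.39 and 2.37 in DNMT3B KO. PTX3, which takes part in cross-linking hyaluronan matrices and is named here after its values were seen, rose from 0.121 ± 0.0452 to 0.431 ± 0.0969 CPM (log2 fold change 1.81, SE 0.41, adjusted p = 0.0125), and did not pass without HCT116 replicate 1 (adjusted p = 0.0649) or DNMT3B KO replicates 1 (0.0577) or 3 (0.0561). Without HCT116 replicate 2, 3 of the list rose. No gene fell in edgeR or DESeq2, and 2 had an unadjusted p under 0.05. The list median was 0.79.

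Other hyaluronan receptors were close to absent. Of LYVE1, STAB1, STAB2, LAYN, TLR2 and TLR4 only STAB1 was tested, at 0.225 ± 0.235 CPM in HCT116 against 0.569 ± 0.458 CPM in DNMT3B KO (log2 fold change 1.34, SE 0.89, adjusted p = 0.304), and it did not pass in edgeR, in DESeq2 or at an unadjusted p under 0.05. CD44 and HMMR were thus the receptors with appreciable RNA in both lines.

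EZR led the 12 genes listed as CD44 partners, sheddases and splicing factors, of which 6 fell, 1 rose and 5 did not pass (median log2 fold change -0.41), beside 15.1% that fell and 12.9% that rose over all tested genes. EZR, or ezrin, which links the CD44 tail to actin, was at 2393, 2479 and 2458 CPM in HCT116 and 1192, 1151 and 1176 CPM in DNMT3B KO (log2 fold change -1.06, SE 0.09, adjusted p = 0.000122). CD44 was lower still relative to EZR, with a ratio of 0.387, 0.535 and 0.369 in HCT116 and 0.274, 0.280 and 0.310 in DNMT3B KO. MSN, or moesin, which does the same work as ezrin, was at 368 ± 16.0 and 369 ± 30.6 CPM (log2 fold change 0.00, SE 0.10, adjusted p = 0.989). The summed epithelial markers were also lower in every DNMT3B KO library (2123 to 2310 CPM against 4388 to 5256 CPM), though EPCAM and CDX2 did not pass and VIL1 was higher, and their part in the levels of CD44, EZR and the epithelial splicing regulators was not tested.

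Of the remaining 6 calls of that list, 5 were lost when some single library was left out and the call of SRGN was not. ESRP1, an epithelial splicing regulator that keeps variable exons in CD44 transcripts, fell from 183 ± 20.0 to 129 ± 13.3 CPM (log2 fold change -0.50, SE 0.12, adjusted p = 0.0148), RDX, or radixin, from 179 ± 22.3 to 131 ± 15.7 CPM (-0.46, adjusted p = 0.0296), and SPP1, or osteopontin, a secreted CD44 ligand, from 1.04 ± 0.247 to 0.272 ± 0.132 CPM (-1.95, adjusted p = 0.0111). ESRP1 did not pass without HCT116 replicate 1 (adjusted p = 0.0537) or DNMT3B KO replicates 1 (0.0645) or 2 (0.0715). RDX did not pass without HCT116 replicates 1 (0.0906) or 3 (0.0537) or DNMT3B KO replicates 1 (0.121) or 2 (0.113), nor SPP1 without HCT116 replicate 1 (0.0508) or DNMT3B KO replicate 3 (0.0505). ESRP2, a relative of ESRP1 (-0.37, adjusted p = 0.0331), and ADAM17, a protease that sheds surface proteins (-0.25, adjusted p = 0.0491), also fell, and SRGN, a proteoglycan that binds CD44, rose from 0.0378 ± 0.0353 to 0.324 ± 0.110 CPM (3.01, SE 0.62, adjusted p = 0.0085); these 3 are named after their values were seen. ESRP2 did not pass without HCT116 replicates 1 (adjusted p = 0.115) or 3 (0.064) or DNMT3B KO replicates 2 (0.13) or 3 (0.132), nor ADAM17 without HCT116 replicate 1 (0.173) or DNMT3B KO replicates 1 (0.17), 2 (0.148) or 3 (0.103). The number that fell was 1 without HCT116 replicate 1 and 3, 2 and 3 without DNMT3B KO replicates 1, 2 and 3, against 7 without HCT116 replicate 2.

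**Figure D4:**
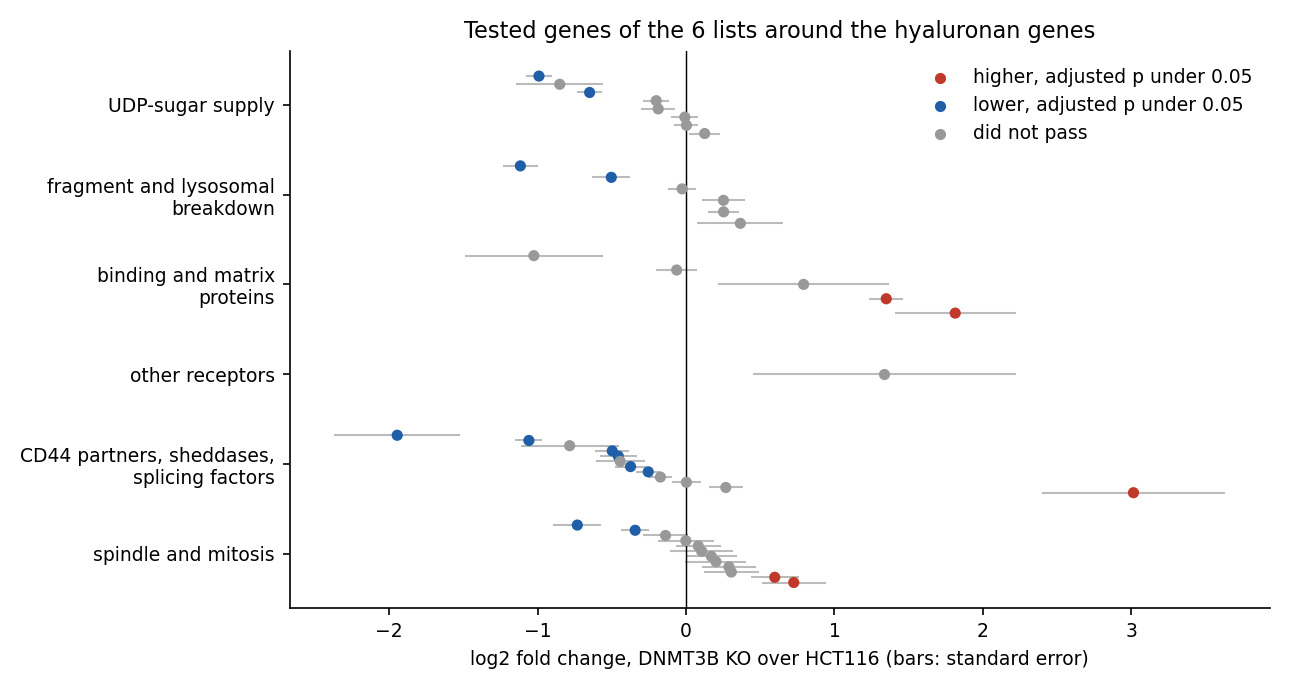
Log2 fold change of DNMT3B KO over HCT116 with its standard error for each tested gene of the 6 lists, in red where higher and blue where lower at an edgeR adjusted p under 0.05 and in grey where the test was not passed. The spread is widest among binding proteins and CD44 partners, and most genes of UDP-sugar supply and of mitosis lie within 1 log2 unit of 0.

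Genes next to the hyaluronan genes were examined for whether their levels differed as well. Within 250 kb of the 10 genes, 145 other genes were annotated and 53 were tested, of which 6 rose, 14 fell and 33 did not pass, with a median log2 fold change of -0.19. Over all tested genes 12.9% rose and 15.1% fell.

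Around HAS3, 12 genes were tested, none rose and 2 fell. CHTF8 and DERPC, which overlap HAS3 on the opposite strand, were at 150 ± 5.94 and 149 ± 6.40 CPM (CHTF8, log2 fold change -0.01, adjusted p = 0.939) and at 66.6 ± 15.4 and 81.1 ± 6.53 CPM (DERPC, 0.28, adjusted p = 0.244) in HCT116 and DNMT3B KO. Neither therefore shared the 47.7-fold difference of HAS3. Without strand information, reads of overlapping genes could not be told apart; the kit keeps strand, but the counting setting was not given in the sources used here. UTP4, 12.6 kb away, fell from 176 ± 29.2 to 131 ± 3.37 CPM (log2 fold change -0.43, adjusted p = 0.0358), a call not made when any library but HCT116 replicate 2 was left out (adjusted p from 0.0591 without HCT116 replicate 3 to 0.129 without DNMT3B KO replicate 3). TERF2, 236.8 kb away and named after its value was seen, fell as well (-0.47, adjusted p = 0.0137), though not without DNMT3B KO replicates 1 (adjusted p = 0.050), 2 (0.059) or 3 (0.0746).

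Around CD44, PDHX (log2 fold change -0.04, adjusted p = 0.751) did not pass, and APIP fell from 34.3 ± 2.24 to 26.7 ± 1.08 CPM (-0.36, adjusted p = 0.0204), though not without HCT116 replicate 1 (adjusted p = 0.0967) or DNMT3B KO replicates 1 (0.0909), 2 (0.0639) or 3 (0.0665). Around HMMR, CCNG1, or cyclin G1, fell from 177 ± 20.0 to 103 ± 8.0 CPM (-0.78, SE 0.11, adjusted p = 0.00147), a difference near that of HMMR itself. NUDCD2, only 0.101 kb from HMMR on the opposite strand (-0.05, adjusted p = 0.757), and MAT2B (-0.04, adjusted p = 0.783) did not pass. HMMR was therefore lower while its closest neighbour showed no detectable difference.

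Around the hyaluronidases, ZMYND10 rose from 0.783 ± 0.0901 to 2.94 ± 0.286 CPM (log2 fold change 1.91, SE 0.23, adjusted p = 0.00068). RASSF1 (-0.05, adjusted p = 0.826) did not pass, nor did SEMA3B (-0.82, adjusted p = 0.222), which did without HCT116 replicate 3 (-1.19, 0.0102). TMEM115 (0.39, adjusted p = 0.0113) and CACNA2D2 (0.87, adjusted p = 0.0131) rose, and GNAI2 (-0.41, adjusted p = 0.00647) and HEMK1 (-0.45, adjusted p = 0.048) fell, all 4 named after their values were seen. CACNA2D2 did not pass without DNMT3B KO replicate 1 (adjusted p = 0.0515), TMEM115 without HCT116 replicate 1 (0.0545) or DNMT3B KO replicate 2 (0.0588), and HEMK1 without any 1 library but HCT116 replicate 3 (0.0506 to 0.155). The cluster thus held genes that rose and genes that fell, as did the hyaluronidases themselves.

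Around CEMIP, ARNT2, a transcription factor 181.4 kb away and named after its value was seen, rose from 6.03 ± 0.868 to 25.7 ± 0.295 CPM (log2 fold change 2.09, SE 0.13, adjusted p = 2.74e-05), and CFAP161 rose below 1 CPM (1.53, adjusted p = 0.0337), a call kept only without HCT116 replicate 3 when libraries were left out in turn (adjusted p otherwise 0.0631 to 0.129). Neither DESeq2 (0.101) nor edgeR on unfiltered genes (0.0689) called CFAP161. MESD, which overlaps CEMIP on the opposite strand (0.10, adjusted p = 0.667), and TLNRD1 (-0.15, adjusted p = 0.331) did not pass. ABHD17C (-0.33, adjusted p = 0.0385) fell, but only HCT116 replicate 3 could be left out without losing the call (adjusted p from 0.0516 without DNMT3B KO replicate 3 to 0.144 without DNMT3B KO replicate 2). Around CEMIP2, ABHD17B (0.22, adjusted p = 0.252) did not pass and C9orf85 (-0.54, adjusted p = 0.0417) fell, a call lost without any 1 library (adjusted p from 0.0573 without HCT116 replicate 2 to 0.133 without DNMT3B KO replicate 3) except HCT116 replicate 3. ABHD17B passed without HCT116 replicate 3 (0.35, adjusted p = 0.0479).

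HAS1 lies on chromosome 19 among zinc finger genes (51713112 to 51723991, minus strand), and there 5 of 8 tested neighbours fell and 1 rose. ZNF577 was at 2.53 ± 0.430 CPM in HCT116 and had no count in DNMT3B KO, which is at least 55.2-fold lower against 3 counts per library (adjusted p = 0.000113). ZNF649 (at least 75.9-fold lower) and ZNF613 (at least 79.3-fold lower) likewise had no count, and ZNF350 and the pseudogene AC074141.1 also fell; these 4 are named after their values were seen. ZNF175 rose from 8.90 ± 1.58 to 14.5 ± 2.72 CPM (0.70, adjusted p = 0.028), though not without HCT116 replicate 1 (adjusted p = 0.0905) or DNMT3B KO replicates 1 (0.0807) or 2 (0.112), and SPACA6 (-0.56, adjusted p = 0.416) did not pass. HAS1 itself had too few reads to show any difference. No gene near HAS2, on chromosome 8, was tested.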

How the data were processed

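RNA-seq libraries were made by the authors from HCT116 and DNMT3B KO cells (3 each) with a stranded poly(A) kit. Per the labels, STAR and Salmon were used on hg38, and the authors deposited an estimated count per gene (expected counts, scaled for gene length and not whole) for each library; the strand setting was not given in the sources used here. All 60666 genes had estimated counts, which were rounded to whole numbers.

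Genes were filtered by filterByExpr, leaving 16959, scaled by TMM and compared by genotype with edgeR 4.0.16 (R 4.3.3; quasi-likelihood test, Benjamini-Hochberg adjustment over all tested genes, adjusted p under 0.05). CPM used TMM library sizes. TPM used the counts without TMM and the union of exons in GENCODE 44. The fit was tested on counts simulated from its own mean levels and spreads, which cannot show that the test suits these libraries. The hyaluronan genes and gene lists were chosen with earlier results of these data known. Other genes named were, per list, up to 4 called genes at 1 CPM or more in a line, taken by smallest adjusted p, and the 3 nearest neighbours of each hyaluronan gene with at least 1 CPM. Depth of 55436267 to 68274783 counts puts 3 counts near 0.05 CPM, and intervals cover counting error only.

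Alternatives were DESeq2 1.42.0 size factors and test, no filter, a replicate block, leaving out each library, an adjusted p of 0.01, a window of 100 kb, and the longest transcript as length. Promoters came from RefSeq (GRCh38.p14), with a window for 9 of the 10 hyaluronan genes.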

Additional observations from a re-analysis of the deposited data

How the results depend on the processing

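All 80 refitted log2 fold changes of the hyaluronan genes moved by less than the spread between libraries. The refits used DESeq2 size factors, no filter, DESeq2, the replicate block and leaving out each library. With 3 libraries a line, leaving out 1 can hardly move a value by more than that spread, so nothing is read from those refits. The values are also those the genes were chosen on. Same-numbered libraries showed no clear pairing. Their deviations from the group means correlated at 0.0641, -0.00963 and 0.122, and 3 of 6 libraries correlated best with their own number. The labels do not say whether the numbers mark pairs, and so few libraries cannot settle it. With the replicate block 1890 genes were higher and 2324 lower, against 2196 and 2565 without it. The block left 9 of 14 lower calls among neighbouring genes and changed the calls of 7 of 54 named genes, CFAP161 among them (adjusted p = 0.0678). The window of 100 kb held 7 lower neighbours. At an adjusted p under 0.01, 1077 genes were higher and 1571 lower, and 2 pathway genes were higher and 4 lower. Leaving out 1 library gave 1283 to 2868 genes higher and 1758 to 3143 lower, 2 to 7 pathway genes higher and 4 to 13 lower, and 3 to 9 neighbours higher and 7 to 17 lower; the cause was not tested. With DESeq2, 2511 genes were higher and 3057 lower. With the longest transcript as length, HMMR was above HYAL2 in DNMT3B KO and the order was otherwise kept. The median log2 fold change of all genes lay between -0.0075 and 0.0125 over the settings. HYAL1 and CEMIP, which were not called, crossed 0 when a library was left out (up to 0.32 and 0.06).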

Other observations

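Of the 64 genes in the lists around the hyaluronan genes, 20 were too low to be tested. HYAL4, SPAM1, ITIH1, ITIH2 and STAB2, 5 in all, had no count in any library, and 19 of the 20 stayed under 0.3 CPM in every library. HAPLN1, a link protein that fastens hyaluronan to proteoglycans such as versican, was the exception. It was at 0.0151, 0 and 0 CPM in HCT116 and at 0.139, 0.671 and 0.0762 CPM in DNMT3B KO, where replicate 2 was well above the other two libraries, and it was not tested in the main fit. The fits that kept low genes (no filter, DESeq2) each called 3 genes of its list higher, against 2 in the main fit. With DESeq2, 2 of the 5 genes tested in the main fit were higher, so a call came from outside them. Whether that gene was HAPLN1 is not given here.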
